A study of Mus musculus with 12 samples.

Results

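The mammalian mitochondrial ribosome translates the few mRNAs encoded by mitochondrial DNA, all of which specify subunits of the oxidative phosphorylation complexes. Its RNA comes from the mitochondrial genome, whereas its proteins are encoded in the nucleus, made in the cytosol and imported. The genes described here are the nuclear genes for these proteins that are named Mrpl or Mrps and a number, with or without a closing letter, and that had a mean expected count of at least 10 over 12 mouse spinal cord libraries. Of the 38924 genes in each library's table, 76 met the rule, and all 76 were among the 17765 genes that passed the filter on low counts. By known place, 49 encode proteins of the large subunit and 26 encode proteins of the small subunit. The count of the large subunit includes Mrps30 and Mrps18a, whose names point to the small subunit. Mrps36 was named as a small subunit protein and is now known as a component of the 2-oxoglutarate dehydrogenase complex. It was kept because the rule goes by name.

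The libraries were made from polyadenylated RNA of whole spinal cord of mice aged 8 weeks on the strain background given as B6J.Cg. One genotype carries the C201R change in Gars on 1 of its alleles, and the other is wild type (WT). Gars encodes glycyl-tRNA synthetase, which from a single gene supplies both the cytosol and the mitochondria, so that mitochondrial translation also draws on it. The genotype tag reads C201R+/- for libraries titled C201R and C201R+/+ for libraries titled WT, and was read with the titles. The labels name no transgene, Cre or pooling of animals.

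Each genotype had 6 libraries, but 2 labels disagreed on which. The library name in the description gives C201R for libraries 1, 2, 3, 4, 9 and 10 and WT for libraries 5, 6, 7, 8, 11 and 12. The title gives WT for libraries 4 and 9 and C201R for libraries 11 and 12. The tests over the 76 genes are therefore given by library name, by title, and in the 8 libraries on which both labels agree, called the undisputed libraries here. Other values are given under the label named beside them. The 3 comparisons share most of their libraries and are not independent of one another. Titled sex was a term in every fit, although it went against the levels of Xist and of 4 Y-linked genes in 6 of the 12 libraries. Xist exceeded the Y-linked genes in libraries 1, 2, 3, 8, 11 and 12, and the reverse held in the others. By title all of the former but library 8 are C201R, and all of the latter but library 10 are WT. By library name libraries 1, 2 and 3 of the former are C201R and the rest WT. Transcript sex is thus uneven between genotypes by title and in the undisputed libraries, and its part in those values was not tested. Fits without the titled sex term are among the alternatives, but no fit used transcript sex.

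The summed expected counts per library ran from 27175421 to 38271405. Gars itself averaged 150 ± 4.20 CPM in C201R libraries and 136 ± 4.25 CPM in WT libraries by library name (SD, n = 6 each). CPM, TMM-scaled counts set to a common library total, can be compared between libraries but not between genes of different length. The log2 difference of Gars was 0.15 ± 0.03 (SE), with an adjusted p of 0.0343 in edgeR's quasi-likelihood test with Benjamini-Hochberg adjustment over all genes. By title Gars averaged 145 ± 5.97 CPM in C201R libraries and 141 ± 9.99 CPM in WT libraries. Spinal cord markers were present in every library, with neuronal markers summing to 3576 to 3922 CPM and oligodendrocyte markers to 25781 to 31001 CPM. By library name, neuronal markers averaged 3612 ± 43.4 CPM in C201R libraries and 3807 ± 91.4 CPM in WT libraries (SD). Oligodendrocyte markers averaged 27758 ± 1294 and 29920 ± 897 CPM. The means of astrocyte, microglia and endothelial markers were higher in C201R libraries, and all of these ranges overlapped. Blood markers ran from 274 to 1996 CPM, nerve root markers from 437 to 2010 CPM and fat markers from 0.568 to 207 CPM. Skeletal muscle markers were also present, from 20.4 to 3129 CPM, and exceeded 1000 CPM in libraries 1, 3, 6 and 8. The 6 motor neuron markers tested, from a list of 7, summed to 159 to 187 CPM in C201R libraries and 196 to 276 CPM in WT libraries by library name. By title their ranges overlapped, at 159 to 221 CPM in C201R libraries and 164 to 276 CPM in WT libraries. The part of these marker levels in the values below was not tested except where libraries were left out. In bulk tissue, fewer cells of a type and less RNA per cell cannot be told apart.

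The start regions of these genes were also examined. RefSeq promoter windows on GRCm38.p6, each running from 250 bases before to 50 bases after a gene's start, were found for 67 of the 76 genes, as 73 windows. Motifs of 3 factors known as regulators of nuclear genes for mitochondrial proteins were searched on both strands. The NRF1 motif GCGCANGCG stood in 15 windows (20.5%), against 6.25% of all 32851 windows. The ETS motif CCGGAAG, which GABPA binds, stood in 24 windows (32.9%), against 8.86% of all windows. The YY1 motif AANATGGC stood in 20 windows (27.4%), against 6.05% of all windows. At least 1 of the 3 was found in 46 windows (63.0%), against 18.6% of all windows. The windows of these genes also held more G and C, with a median of 58.3% against 52.7%, and a median of 21 CpG dinucleotides against 7. A motif match describes letters and is no evidence of binding, and the part of base composition in these shares was not tested. All windows together cover 27025 genes, more than the 17765 tested here, so they also hold genes with few or no counts.

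The upstream 250 bases of 1 window are printed for each of the 2 genes with the highest levels. Both are written 5′ to 3′ on the strand of the gene, from the same RefSeq table. The Mrps21 window lies at chr3:95871515-95871764 on the minus strand, and its capitals mark the NRF1 motif on the reverse strand, 90 bases before the start. The Mrpl48 window lies at chr7:100608302-100608551 on the minus strand, and this window, the farthest upstream of its 4 RefSeq windows, holds none of the 3 motifs. Another of the 4, at chr7:100583131-100583380, holds the ETS motif on the reverse strand, 34 bases before its start. Of the 2 genes with the lowest p by library name, Mrpl51 has the ETS motif 90 bases before its RefSeq start, and the upstream bases of Mrps5 hold none of the 3. The annotation GENCODE M21 starts both genes earlier. The upstream bases of Mrpl51 (chr6:125191950-125192199) lie wholly after its start there, 125191801. Those of Mrps5 (chr2:127587176-127587425) lie partly after its start there, 127587222.
Mrps21: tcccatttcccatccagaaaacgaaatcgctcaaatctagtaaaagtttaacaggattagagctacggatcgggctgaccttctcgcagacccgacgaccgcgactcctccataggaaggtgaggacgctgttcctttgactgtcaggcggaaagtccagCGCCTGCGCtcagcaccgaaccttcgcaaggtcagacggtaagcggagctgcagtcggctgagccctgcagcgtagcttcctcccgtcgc
Mrpl48: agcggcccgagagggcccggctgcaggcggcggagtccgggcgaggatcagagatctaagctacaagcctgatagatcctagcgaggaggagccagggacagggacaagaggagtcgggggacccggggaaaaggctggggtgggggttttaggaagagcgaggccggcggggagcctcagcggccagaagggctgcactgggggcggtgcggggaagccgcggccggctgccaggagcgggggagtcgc

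Levels are given as deposited TPM, which account for transcript length and so can be compared between genes. The mean TPM of the 76 genes over the 12 libraries had a median of 45.7, with the middle 50% between 30.2 and 62.2. The median over all genes tested was 13.6 TPM. The 2 subunits lay close together, with a median of 46.1 TPM for the large subunit genes and 45.3 TPM for the small subunit genes. The 46 genes classed as having a bacterial counterpart had a median of 46.4 TPM. The 29 genes classed as specific to mitochondrial ribosomes had a similar median of 45.4 TPM. Mrps18c was placed in the first class, and Mrps18a and Mrps18b in the second. Genes of the cytosolic ribosome stood at a median of 386 TPM (77 genes). The 7 mitoribosomal proteins that carry other names had a median of 69.2 TPM.

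Mrpl48 and Mrps21 had the highest levels, 165 ± 9.46 and 164 ± 11.9 TPM (SD over 12 libraries). Their ranges, 149.63 to 181.71 TPM for Mrpl48 and 148.24 to 191.03 TPM for Mrps21, overlapped almost entirely, so their order is not resolved. Mrps21 encodes a small subunit protein with a bacterial counterpart, and Mrpl48 a large subunit protein without one. Mrpl42, also of the large subunit, followed at 124 ± 8.32 TPM, below both in every library. Mrpl20 (94.9 ± 7.30 TPM) and Mrps5 (88.8 ± 8.58 TPM) came next, with overlapping ranges.

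The lowest levels were those of large subunit genes. Mrpl1, whose protein forms the mobile stalk near the exit site of the ribosome, stood at 10.4 ± 0.520 TPM. Mrpl11, which encodes a protein of the stalk base where translation factors bind, stood at 15.0 ± 1.00 TPM. Mrpl35 and Mrpl19 followed at 18.2 ± 0.605 and 21.3 ± 2.73 TPM, and their ranges overlapped. Mrpl23 was listed lowest, at 9.23 ± 1.76 TPM, a value that depends on how reads were divided with a near copy, as described further on. Of the genes with a name that departs from their place, Mrps36 had 77.0 ± 6.11 TPM, Mrps18a 65.6 ± 4.67 TPM and Mrps30 22.0 ± 1.41 TPM.

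**Figure D1:**
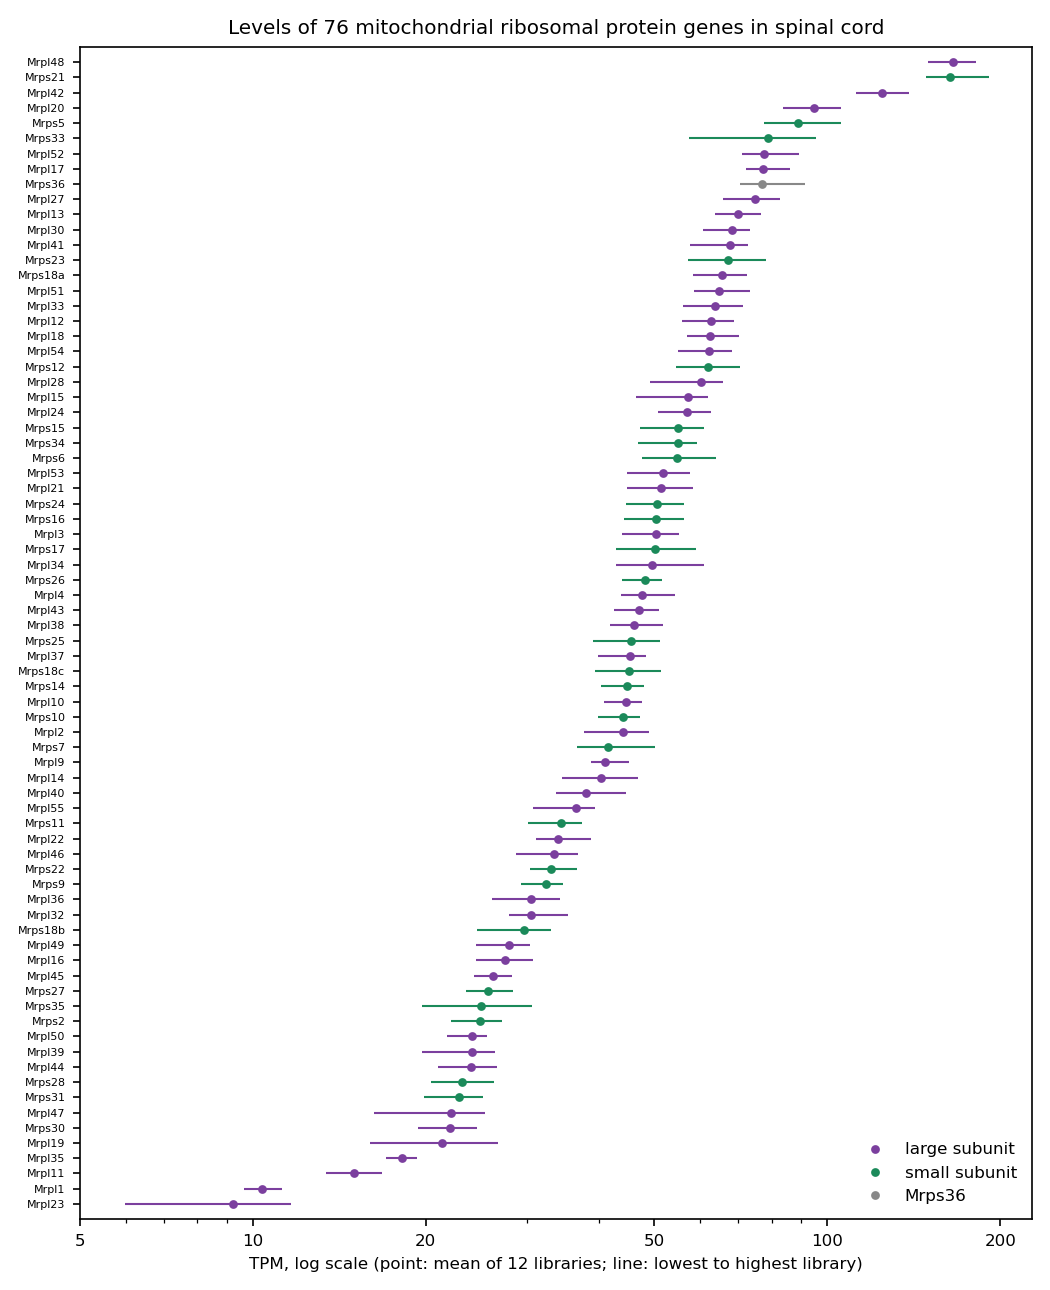
Levels of the 76 genes, one row per gene, on a log axis of TPM. Points are means of the 12 libraries and lines run from the lowest to the highest library, in purple for the large subunit, green for the small subunit and grey for Mrps36. Mrpl48 and Mrps21 lead with overlapping ranges, and Mrpl23 has the lowest mean and a wide range for its level.

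The genes lie on 17 chromosomes in GENCODE M21, to which 75 of the 76 matched by gene ID (Mrpl33 did not). All 75 are annotated as protein coding. Chromosome 11 holds the most, with 10 genes, and 0 lie on the X chromosome. Of the 75, 27 share exon bases with a gene on the opposite strand and 7 with a gene on the same strand. Mrpl46 (chr7:78775236-78783531, minus strand) and Mrps11 share exon bases with each other on opposite strands. Mrps6 shares them with Slc5a3, a myo-inositol transporter gene, on the same strand, and Mrpl48 with Rab6a on the opposite strand. RSEM divides reads that fit more than 1 gene, and 20 of the 76 genes had an expected count more than 0.001 from a whole number in every library. Mrpl48 was among these, so its level carries that uncertainty, while Mrps21 had whole counts by the same tolerance in all 12 libraries.

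The first question was whether the summed expression of the genes differed by genotype. The sum of CPM over the 76 genes was 1772 ± 41.8 in C201R libraries and 1774 ± 36.7 in WT libraries by library name (SD, n = 6 each), a difference of -0.106%. By title it was 1766 ± 36.8 in C201R libraries and 1781 ± 39.9 in WT libraries, a difference of -0.889%. The 6 C201R libraries by library name spanned 1721 to 1811 CPM and the 6 WT libraries 1718 to 1819 CPM. The groups therefore covered the same range, and the difference between their means was far smaller than the SD within either. Summed TPM was 3809 ± 188 in C201R libraries and 3756 ± 179 in WT libraries by library name. On that scale the difference was 1.43%, again below the SD.

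**Figure D2:**
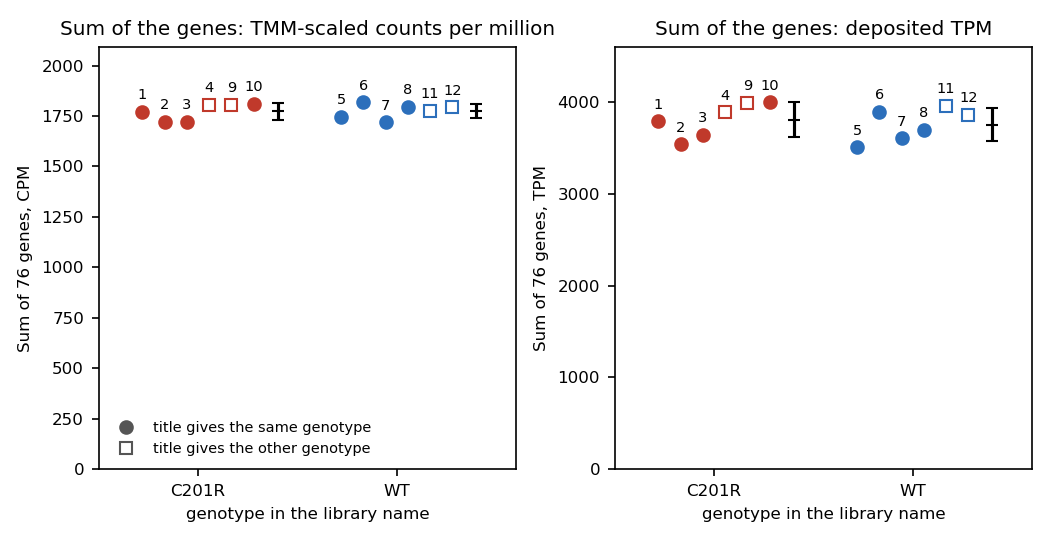
Sum of the 76 genes per library, in TMM-scaled CPM on the left and deposited TPM on the right, with C201R libraries left of WT libraries by library name. Points are libraries with their numbers, filled circles where the title gives the same genotype and open squares where it gives the other, and black bars are mean ± SD. In CPM the C201R libraries run from 1721 to 1811 and the WT libraries from 1718 to 1819.

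The summed levels of the 2 subunits each varied little, from 1115 to 1189 CPM for the large and from 581 to 611 CPM for the small. Their ratio therefore had little room to vary, and no ratio of other gene sets was taken for comparison. The summed CPM of the large subunit genes divided by that of the small subunit genes lay between 1.91 and 1.99 in the 12 libraries. By library name the ratio was 1.93 ± 0.013 in C201R libraries and 1.95 ± 0.030 in WT libraries. By title it was 1.95 ± 0.027 in C201R libraries and 1.93 ± 0.016 in WT libraries, the opposite order. Some libraries were low across many of the genes. In libraries 2, 7 and 3, 20, 20 and 21 of the 76 genes were above their own mean over the 12 libraries, whereas in library 6 it was 55. By both labels libraries 2 and 3 are C201R and libraries 6 and 7 are WT, so libraries with few genes above their mean occur in each genotype.

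Single genes were then tested in the fit over all genes. By library name, 0 of the 76 genes passed an adjusted p of 0.05 in edgeR's quasi-likelihood test, against 0.715% of all genes tested (127 genes). At an unadjusted p under 0.05 there were 3 of the 76 (3.95%), against 12.8% of all genes. By title, 0 of the 76 passed, against 0% of all genes tested. At an unadjusted p under 0.05 there were then 4 (5.26%), against 6.77% of all genes. In the undisputed libraries 0 of the 76 passed, against 0.163% of all genes (29 genes), and 4 had an unadjusted p under 0.05, against 13% of all genes. With so few of all genes past the adjusted threshold, 0 of the 76 lies close to the share of all genes. The smallest adjusted p of any of the 76 in that edgeR test was 0.255 by library name, 0.662 by title and 0.254 in the undisputed libraries. DESeq2 called 0 of the 76 in each of the 3 comparisons. Of the 17765 genes tested, it called 318 by library name and 18 by title. In the undisputed libraries the 18 alternative settings, DESeq2 among them, called 1 to 245 of all genes. Nothing in the labels ties each library to its own animal, so the p-values reflect variation among these 12 libraries.

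The precision of the comparison can be read from the 95% intervals of the log2 differences. By library name the interval lay within 0.32 log2 units of 0 in either direction for 75 of the 76 genes (98.7%), against 65.1% of all genes tested. By title it did so for 75 genes, against 67.5% of all genes, and in the undisputed libraries for 74, against 58.3% of all genes. Mrpl23 was the exception in each comparison, with an interval from -0.14 to 0.52 by library name. In the undisputed libraries Mrpl32 was outside as well, with an interval from -0.40 to -0.03. These intervals hold for 1 gene at a time and are not adjusted for the number of genes. The genes tested reach down to a mean of 0.0992 CPM, against 2.63 CPM for the lowest of the 76. The shares were not matched for level, and fewer counts widen an interval.

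The differences were centred near 0 in each comparison. By library name 42 of the 76 genes had a log2 difference above 0, against 50.9% of all genes tested, and the median was 0.00235 against 0.0023 for all genes. By title 30 genes were above 0, against 50.7% of all genes, with a median of -0.0146 against 0.00124. In the undisputed libraries 32 were above 0, against 52.1% of all genes, with a median of -0.0168 against 0.00527. The size of the differences without regard to sign had a median of 0.0347 by library name, against 0.0641 for all genes, again not matched for level. By subunit, 29 of 49 large subunit genes and 13 of 26 small subunit genes were above 0 by library name, with 0 called in either. By title these counts were 23 of 49 and 7 of 26, again with 0 called.

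**Figure D3:**
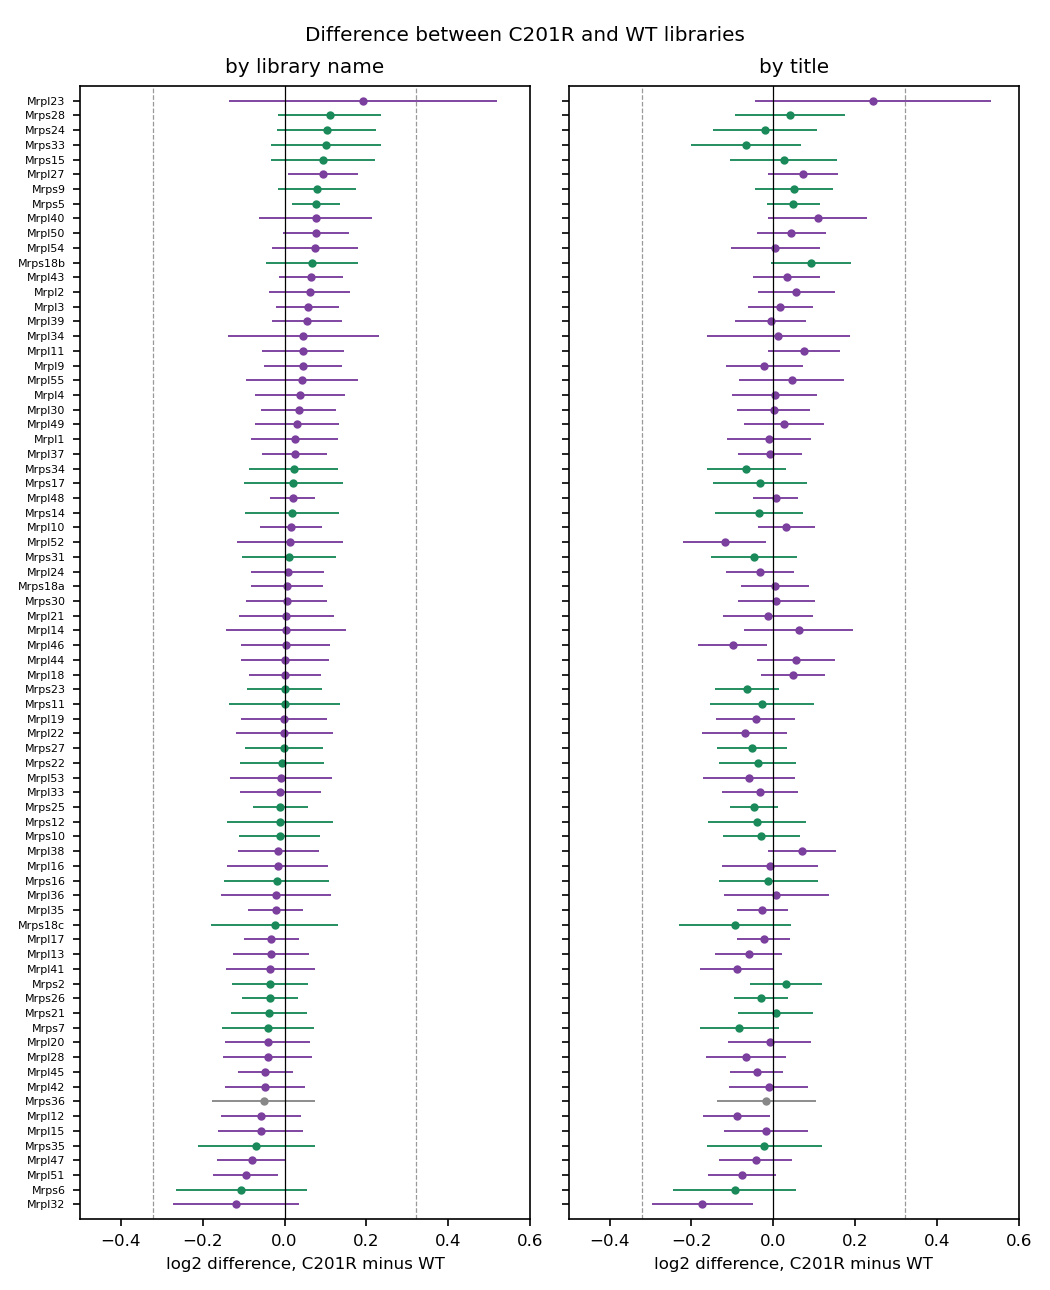
Log2 difference of each of the 76 genes, C201R minus WT, by library name on the left and by title on the right, ordered by the left values. Points are fitted differences, lines are 95% intervals, dashed lines mark 0.32 log2 units in either direction, and colours are purple for the large subunit, green for the small subunit and grey for Mrps36. Mrpl23 alone has an interval that reaches past a dashed line in these 2 comparisons.

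The 3 genes with an unadjusted p under 0.05 by library name were Mrps5, Mrpl51 and Mrpl27. Mrps5, a small subunit protein whose bacterial counterpart helps keep decoding accurate, had 51.4, 54.0 and 54.9 CPM as the lowest, median and highest of the 6 C201R libraries, against 49.7, 50.6 and 52.8 CPM in the 6 WT libraries. Libraries 3 and 9 had the lowest C201R values and fell within the WT range, and library 12 had the highest WT value, so the groups overlapped. The log2 difference was 0.08 ± 0.03 (SE), with a mean of 53.4 ± 1.45 CPM in C201R libraries and 50.9 ± 1.08 CPM in WT libraries and an adjusted p of 0.255 in edgeR's quasi-likelihood test. By title the log2 difference was 0.05 ± 0.03, with an adjusted p of 0.826 in the same edgeR test.

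Mrpl51 encodes a large subunit protein with no bacterial counterpart. Its lowest, median and highest values were 33.6, 35.0 and 37.0 CPM in C201R libraries, against 35.7, 38.1 and 39.7 CPM in WT libraries. Libraries 4 and 9, named C201R and titled WT, were the highest of the C201R group, and library 11, named WT and titled C201R, was the lowest of the WT group. The log2 difference was -0.10 ± 0.04, with an adjusted p of 0.310 in edgeR's quasi-likelihood test. It was -0.06 without library 8 (WT) and -0.03 without the 4 libraries above 1000 CPM of muscle markers, with adjusted p-values of 0.608 and 0.922 in the edgeR fit. By title it was -0.08 ± 0.04, and -0.02 without those 4 libraries. Without the 4 disputed libraries the ranges did not overlap, at 34.7 ± 0.685 CPM in C201R libraries and 38.04 ± 1.47 CPM in WT libraries (SD, n = 4 each), and the adjusted p of the edgeR fit was 0.254.

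Mrpl27 encodes a large subunit protein whose bacterial counterpart reaches into the site of peptide bond formation. It had 23.1, 24.5 and 25.3 CPM as the lowest, median and highest C201R value, against 21.7, 22.96 and 24.3 CPM in WT libraries. The highest WT value, in library 12, and the lowest C201R value, in library 1, crossed. The log2 difference was 0.09 ± 0.04, with an adjusted p of 0.350 in edgeR's quasi-likelihood test. The other 7 of the 10 genes with the lowest p by library name were Mrpl47, Mrpl50, Mrps28, Mrps24, Mrps9, Mrpl43 and Mrpl32. Their adjusted p in the same edgeR fit ran from 0.417 for Mrpl47 to 0.532 for Mrpl32. Mrpl47 had a log2 difference of -0.08 ± 0.04, and Mrps28 one of 0.11 ± 0.06. Without library 1 (C201R) the difference of Mrps28 was 0.07. That of Mrpl43, 0.06 ± 0.04, was 0.04 without library 7 and 0.10 without library 8, both WT.

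By title the lowest p belonged to Mrpl32. Its protein is a large subunit component that the m-AAA protease of the inner membrane processes before ribosome assembly, as shown in yeast and mouse. It had 8.84, 9.46 and 9.96 CPM as the lowest, median and highest of the 6 libraries titled C201R, against 9.97, 10.4 and 12.1 CPM in the 6 titled WT. The groups did not overlap, but the values nearest each other were 9.96 CPM in library 11, titled C201R, and 9.97 CPM in library 9, titled WT, both of them disputed libraries. The log2 difference was -0.17 ± 0.06, the unadjusted p was 0.00966 and the adjusted p was 0.662 in edgeR's quasi-likelihood test. Mrpl32 was the 1 gene of the 76 whose groups did not overlap by title, against 0.349% of all genes tested.

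By library name the ranges of Mrpl32 overlapped, at 9.63 ± 0.631 CPM in C201R libraries and 10.4 ± 0.958 CPM in WT libraries. Its log2 difference was then -0.12 ± 0.07, with an adjusted p of 0.532 in the edgeR fit. Without library 8 alone it was -0.03, with an adjusted p of 0.899 in the edgeR fit. Without libraries 1, 3, 6 and 8, those with over 1000 CPM of muscle markers, the log2 difference by library name was 0.0145, with an adjusted p of 0.984 in the edgeR fit, and by title it was -0.11. Library 8, with 2579 CPM of muscle markers, also had the highest value of Mrpl32, 12.1 CPM. Library 3 had the most muscle markers, 3129 CPM, and 9.27 CPM of Mrpl32. Libraries 1 and 6, with 1605 and 1328 CPM of muscle markers, had 9.60 and 10.95 CPM of Mrpl32. The part of muscle transcripts in the level of Mrpl32 was not tested.

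The other 9 of the 10 genes with the lowest p by title were Mrpl52, Mrpl46, Mrpl12, Mrpl41, Mrps18b, Mrpl51, Mrpl40, Mrpl11 and Mrpl27. Mrpl52 averaged 10.6 ± 0.659 CPM in C201R libraries and 11.5 ± 0.670 CPM in WT libraries by title, a log2 difference of -0.12 ± 0.05. Mrpl12, whose protein also binds the mitochondrial RNA polymerase, averaged 36.0 ± 1.65 CPM in C201R libraries and 38.3 ± 1.44 CPM in WT libraries, a log2 difference of -0.09 ± 0.04, and of -0.04 without the 4 muscle-rich libraries. Adjusted p-values of these 9 genes in edgeR's quasi-likelihood test ran from 0.684 to 0.775. Mrpl52 and Mrpl46 stood at 0.01 ± 0.06 and 0.00 ± 0.05 by library name, so their values by title are not matched under the other label.

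No gene of the 76 had groups that did not overlap by library name, where 1.64% of all genes did. In the undisputed libraries 5 of the 76 had groups that did not overlap (6.58%), against 8.53% of all genes tested. Mrpl11 and Mrps5 were higher in C201R libraries, and Mrpl32, Mrpl51 and Mrps25 were lower. Of the genes with a displaced name, Mrps36 had a log2 difference of -0.05 ± 0.06 by library name, Mrps30 one of 0.01 ± 0.05 and Mrps18a one of 0.01 ± 0.04. None of the 3 was called in any comparison.

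**Figure D4:**
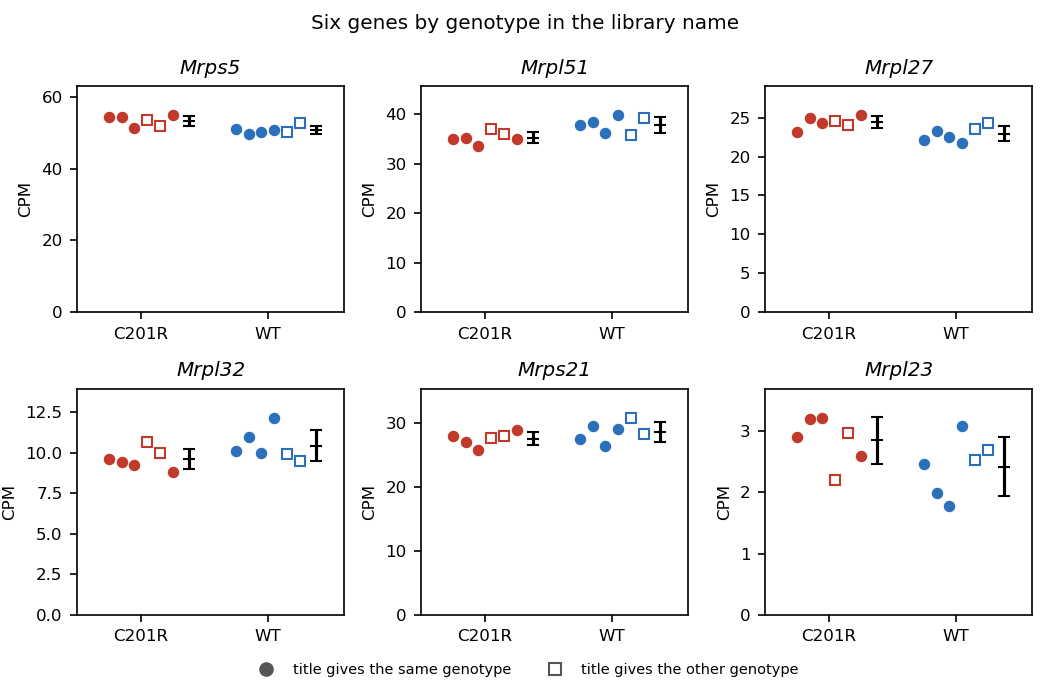
CPM of Mrps5, Mrpl51, Mrpl27, Mrpl32, Mrps21 and Mrpl23 in each library, with C201R left of WT by library name and every axis starting at 0. Points are libraries in order of their number, filled circles where the title gives the same genotype and open squares where it gives the other, and black bars are mean ± SD. The groups overlap in all 6 panels, and Mrpl23 has the widest spread for its level.

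Most of the genes varied little between libraries. The SD of log2 CPM over the 12 libraries had a median of 0.0747 for the 76 genes. It was 0.115 for all genes tested and 0.105 for the 9583 genes tested whose mean lay in the same range, 2.63 to 57.2 CPM. Mrpl23 alone set the low end of that range. Mrps28, with the next fewest counts, had at least 7.05 CPM in every library. The 9583 genes therefore include genes at lower levels than nearly all of the 76, and levels were not matched more closely. Mrpl48 (0.031) and Mrpl17 (0.034) had the smallest values. The mean Pearson correlation of log2 CPM between the genes was 0.152 over 2850 pairs, as a description across 12 libraries that share their depth and tissue composition. No such value was taken for other genes, and the part of counting noise in it was not tested.

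The largest SD values belonged to Mrpl23 (0.267), Mrpl34 (0.138), Mrps6 (0.129), Mrps33 (0.125) and Mrpl32 (0.122). Mrps6 had 18.0 to 18.5 CPM in libraries 1 to 4, 18.8 CPM in library 8 and 20.4 to 23.03 CPM in the other 7 libraries. Libraries 1 to 4 are all named C201R, but libraries 9 and 10, named C201R too, had 22.96 and 21.2 CPM. The log2 difference of Mrps6 by library name was -0.11 ± 0.07, with an adjusted p of 0.611 in edgeR's quasi-likelihood test. Mrps33, a small subunit protein with no bacterial counterpart, had its lowest values, 26.3 and 26.4 CPM, in libraries 11 and 12, for which the labels disagree. Its log2 difference was 0.10 ± 0.06 by library name and -0.07 ± 0.06 by title, and neither was called. The signs are thus opposite under the 2 labels.

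**Figure D5:**
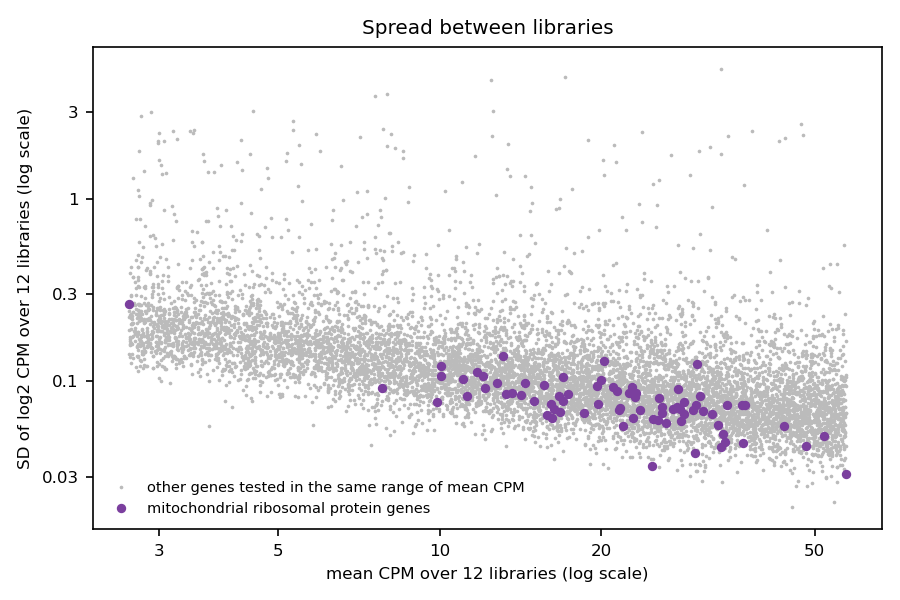
SD of log2 CPM over the 12 libraries against mean CPM, both on log axes, for the 76 genes (purple) and the other genes tested in the same range of mean CPM (grey). The median SD is 0.0747 for the 76 genes and 0.105 for all 9583 genes in the range. Mrpl23, which alone sets the low end of the range, is the purple point at the far left with 0.267.

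Mrpl23 has a near copy in the annotation. Its protein sits at the exit of the tunnel for the nascent chain in bacterial ribosomes. A gene annotated as Mrpl23-ps1 was listed at 57.3 ± 5.99 TPM, over 12 libraries, against 9.23 ± 1.76 TPM for Mrpl23. The expected counts of both were fractional, but their sum was whole within 0.02 in 12 of 12 libraries, so reads were divided between the 2. Summed, they came to 66.6 ± 5.45 TPM, with a range of 54.7 to 74.6 TPM, which lies above the median of the 76 genes. The SD of log2 CPM was 0.267 for Mrpl23 alone, 0.154 for the copy and 0.109 for the sum.

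By library name, Mrpl23 had 2.196, 2.94 and 3.21 CPM as the lowest, median and highest C201R value, against 1.77, 2.49 and 3.08 CPM in WT libraries. Libraries 6 and 7 were lowest and the groups overlapped. The log2 difference was 0.19 ± 0.15 for Mrpl23, -0.07 ± 0.09 for the copy and -0.02 ± 0.07 for the sum, with adjusted p-values of 0.665, 0.826 and 0.936 in edgeR's quasi-likelihood test. By title the 3 values were 0.24 ± 0.13, -0.15 ± 0.08 and -0.08 ± 0.06. The difference of Mrpl23, the highest of the 76 in each comparison, was thus opposite in sign to that of the copy with which it shares reads. Pseudogenes of Mrps36 and Mrpl48 were listed at no more than 2.11 TPM in any library.

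The number in the title, 1 to 12, was also tried as a linear term beside the library-name genotype and titled sex. The slope was above 0 for 63 of the 76 genes (82.9%), against 49.5% of all genes tested. Some libraries were low across many of the 76 genes, so these slopes are not independent of each other. The median slope was 0.00614 log2 units per library number for the 76 genes and -0.000284 for all genes. None of the 76 slopes was called, against 6.38% of all genes tested, and the smallest adjusted p among them was 0.0707 in edgeR's quasi-likelihood test. The labels do not say what the number stands for.

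Other genes that serve mitochondrial translation were compared in lists of known function. By library name, by title and in the undisputed libraries, 0 members were called in each of 8 lists, against 0.715%, 0% and 0.163% of all genes tested. At those shares, lists of 7 to 28 genes would seldom hold a called gene. Of the 7 mitoribosomal proteins with other names, 5 were above 0 by library name, and their median log2 difference was 0.043. Ict1, a release factor that is also a large subunit protein, had the lowest p among them, with a log2 difference of 0.12 ± 0.05. Among 28 genes of mitoribosome assembly and rRNA modification, 14 were above 0 and 14 below. Ngrn, which is needed for stability of the large ribosomal RNA, averaged 23.7 ± 0.694 CPM in C201R libraries and 21.8 ± 1.28 CPM in WT libraries, with an adjusted p of 0.115 in edgeR's quasi-likelihood test. Rnmtl1, an rRNA methyltransferase gene, had a log2 difference of 0.17 ± 0.06.

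Of 17 mitochondrial translation factors, 7 were above 0 by library name. Guf1 and Mrrf, a back-translocase and the recycling factor, had the lowest p, at 0.13 ± 0.07 and -0.10 ± 0.05. Of 20 genes for mitochondrial aminoacyl-tRNA synthetases and the related amidotransferase, 11 were above 0. Gatc, of the amidotransferase, stood at 0.10 ± 0.04 and Nars2, which charges tRNA with asparagine, at -0.16 ± 0.06. Lars2 made up most of the summed level of that list, at 1150 to 3428 CPM per library, while the other genes of the list together came to 313 to 329 CPM. The source of the reads counted for Lars2, and of their spread between libraries, was not tested.

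Of the 18 genes of mitochondrial transcription and RNA processing, 17 were tested and 8 were above 0 by library name. Tfam, which packages mitochondrial DNA and starts its transcription, averaged 38.9 ± 1.36 CPM in C201R libraries and 36.6 ± 0.550 CPM in WT libraries, with an adjusted p of 0.237 in edgeR's quasi-likelihood test. Fastkd5, of mitochondrial RNA processing, had a log2 difference of -0.23 ± 0.11. Among 10 regulators of mitochondrial biogenesis, 5 were above 0. Gabpb2 stood at 0.09 ± 0.05 and Yy1 at -0.10 ± 0.06 by library name. By title, Pprc1, a coactivator of this group, had a log2 difference of -0.16 ± 0.05 with an adjusted p of 0.640 in the edgeR fit.

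The 13 mRNAs encoded by mitochondrial DNA are the templates of the mitoribosome. By library name 1 was above 0 and 12 were below. Their median log2 difference was -0.046 by library name and -0.076 by title. Their summed level was 70390 ± 7159 CPM in C201R libraries and 71848 ± 7798 CPM in WT libraries by library name, a difference smaller than the SD of either group. These mRNAs come from shared transcripts and are not independent of each other. Among 18 genes of the outer membrane, import and matrix, 8 were above 0. Lonp1, a matrix protease, averaged 79.0 ± 1.53 CPM in C201R libraries and 73.8 ± 1.85 CPM in WT libraries, with a log2 difference of 0.10 ± 0.02 and an adjusted p of 0.0969 in edgeR's quasi-likelihood test.

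The cytosolic ribosomal protein genes gave a second set for comparison. By library name 66 of the 77 tested were above 0 (median log2 difference 0.024), and by title 28 were (median -0.011). In the undisputed libraries 54 were above 0 (median 0.013). These directions come from the same libraries and were not taken as independent of each other. None was called by library name, by title or in the undisputed libraries, against 0.715%, 0% and 0.163% of all genes tested. For a set of 77 genes this lies close to the share of all genes. Their summed level was 9174 ± 304 CPM in C201R libraries and 9127 ± 170 CPM in WT libraries by library name.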

How the data were processed

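The 12 libraries were made with a stranded polyA kit and read as 75-base pairs, per the labels' protocols. Bowtie2 2.2.0 and RSEM 1.2.12 were used, per the submitters' processing notes. Neither genome build nor annotation is given in the sources used here. The deposited tables hold an expected count and a TPM for each of 38924 genes, per the file headers. RSEM divides reads among genes that share them, so the authors' expected counts need not be whole.

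Expected counts were rounded. After filtering by filterByExpr on the 4 titled groups and TMM scaling, edgeR 4.0.16 (R 4.3.3) fitted quasi-likelihood models with titled sex and genotype as terms. P-values were adjusted over all genes tested by the Benjamini-Hochberg method, at a threshold of 0.05. Each SE comes from dividing the log2 difference by the root of its F statistic, and 95% intervals use that SE and the degrees of freedom of the fit. The fits were also run on counts simulated from their own means and dispersions, without a sex effect or disputed labels. That run cannot show how the fits behave where labels are in dispute. Totals of 27175421 to 38271405 counts leave the lowest of the 76 genes, Mrpl23, with a mean count of 84.2. Alternatives used DESeq2 1.42.0, limma 3.58.1, other scalings, filters and terms, and left out each library in turn. The 76 genes, the gene lists and the motifs were chosen with earlier results of these data known. Genes are named as the 10 of lowest p by library name and by title, the 5 highest and 5 lowest in TPM, the 5 of largest SD, Mrps36, Mrps30 and Mrps18a, and the 2 of lowest p in other lists. Genes outside this rule, such as Mrps25, Mrps11 and Mrpl17, were named after their values were seen. Protein sequences are not analysed here.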

Additional observations from a re-analysis of the deposited data

Results flagged for a closer look

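A library was set apart where its gap to the nearest other library of its group was large for the group's range (Dixon's test for 6 libraries). Of 140 such tests, over the members named by the rule, their sums, the subunit ratio and Gars, 5 met it, and chance alone meets it about 1 time in 20.

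Mrps36 had 23.79 CPM in library 10, against 19.6 to 20.96 CPM in the other 5 C201R libraries by library name and 19.6 to 21.1 CPM in the other 5 by title. Mrpl41 had 21.43 CPM in library 8, against 23.5 to 23.8 CPM in the other 5 WT libraries by title. Mrps18b had 11.62 CPM in the same library, against 12.8 to 13.5 CPM in the other 5. Library 8 also had 2579 CPM of skeletal muscle markers, and the part of those transcripts in these values was not tested. Mrpl11 had 23.41 CPM in library 12, against 20.3 to 21.5 CPM in the other 5 WT libraries by library name, and the title of library 12 gives C201R.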

How the results depend on the processing

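No member was called under any of 62 other settings, of which 22 were for the library name, 22 for the title and 18 for the undisputed libraries. Among all genes the count called ranged from 12 to 318 by library name, from 0 to 18 by title and from 1 to 245 in the undisputed libraries, and the smallest adjusted p of a member reached 0.145, 0.347 and 0.183. The median log2 difference ranged from -0.0119 to 0.0439 by library name, from -0.0265 to 0.0160 by title and from -0.0282 to 0.0714 in the undisputed libraries. Without the libraries above 1000 CPM of skeletal muscle transcripts (added with the values already known, as were the test of the library number and the sum of Mrpl23 with its copy) it was 0.04391 by library name and 0.07136 in the undisputed libraries. In the undisputed libraries it was 0.03415 and 0.03511 with limma on log2(TPM + 1) and log2(TPM + 0.1), and 0.03433 with library number as a linear term. Of the repeats for single genes, 439 kept their direction and 1 did not: Mrpl32 by library name turned to 0.0145 without the muscle-rich libraries. The cause of these shifts was not tested. No paired analysis was possible because each number in the titles belongs to a single library. Mrpl23, with a mean count of 84.2, is the member with the fewest counts.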
